A study of Mus musculus with 6 samples.

Results

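10 genes of different kinds, none of them a homeobox gene, stood at 357 to 1746 signal units in mouse forelimb buds of the Ring1A and Ring1B double knockout (Ring1A/B-dKO, here dKO), against 223 or less in the control. They are Fabp3, Galnt12, Kdelr3, Chdh, Tcfl5, Ptx3, Emilin3, Trank1, Cgas and Foxl2os. They were selected on their measured signals, as being among the genes with the largest excess of dKO over control in both the proximal and the distal part of the bud, and they are 10 of the 18193 genes the arrays name. All 13 probe sets annotated to them, out of 45101, were read. Because the dKO and control signals chose the members, those signals are given as a description, with no test.

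RNA of forelimb buds from mice of strain CD1 at E10.5, in days of embryonic life, was measured on 6 one-colour Affymetrix arrays, 1 proximal and 1 distal for each of 3 conditions. The dKO buds were Prx1-Cre; Ring1A-/-; Ring1Bfl/fl, in which the Prx1 enhancer drives the Cre recombinase mainly in limb mesenchyme, so ectoderm, vessels, muscle precursors and blood may still carry Ring1B. The second condition, RA, was wild type embryos whose mothers had been given all-trans retinoic acid by gavage, at 100 mg/kg, at E10.25. The control received no retinoic acid. One label calls these embryos wild type and another gives their genotype as Ring1A-/-, which the series' design repeats, so Ring1A loss is, by the label, shared by dKO and control and not by RA. Each combination of part and condition has 1 array, and the labels do not say how many embryos went into each, so no difference from the control below has a replicate check.

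Ring1A and Ring1B are the RING-finger subunits of Polycomb repressive complex 1, which places a single ubiquitin on histone H2A and compacts chromatin at silenced developmental genes. In limb buds the complex is known for keeping Hox and other homeobox genes in their regional patterns. Polycomb targets in mammals usually have CpG-rich promoters, where the dinucleotide CpG is kept at a higher density than in the rest of the genome. The members here span a lipid carrier, enzymes of the Golgi and the mitochondrion, a retrieval receptor, matrix and immune proteins, a transcription factor and a noncoding RNA.

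Promoter windows, 250 bases before to 50 after a RefSeq gene start (assembly GRCm38.p6), were found for 8 members, and Galnt12 and Emilin3 are named without one. The 250 bases before the start are printed 5′ to 3′ for 6 members that span the range of CpG density, with every CpG in capitals. Over the whole 300-base windows, Trank1 and Tcfl5 are the densest and Ptx3 the sparsest of the genes with a single window. Fabp3, Foxl2os and Cgas lie between them. In the printed 250 bases, Foxl2os has 23 CpGs and Tcfl5 22. The printed stretches are placed as follows. Trank1 lies at chr9:111311489-111311738 on the + strand, Tcfl5 at chr2:180642692-180642941 on the - strand and Foxl2os at chr9:98955311-98955560 on the - strand. Fabp3 lies at chr4:130308488-130308737 on the + strand, Cgas at chr9:78443238-78443487 on the - strand and Ptx3 at chr3:66219637-66219886 on the + strand.
Trank1: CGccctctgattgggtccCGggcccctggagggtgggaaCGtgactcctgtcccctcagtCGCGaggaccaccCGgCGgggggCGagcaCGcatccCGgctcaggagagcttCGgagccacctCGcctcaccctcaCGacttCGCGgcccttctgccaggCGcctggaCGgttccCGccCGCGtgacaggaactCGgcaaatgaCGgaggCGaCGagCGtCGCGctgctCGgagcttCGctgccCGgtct
Tcfl5: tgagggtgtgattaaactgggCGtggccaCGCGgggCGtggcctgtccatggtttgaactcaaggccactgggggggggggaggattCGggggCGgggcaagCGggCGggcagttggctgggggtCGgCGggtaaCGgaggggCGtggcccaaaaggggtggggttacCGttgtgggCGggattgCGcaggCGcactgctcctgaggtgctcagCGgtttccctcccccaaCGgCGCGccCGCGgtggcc
Foxl2os: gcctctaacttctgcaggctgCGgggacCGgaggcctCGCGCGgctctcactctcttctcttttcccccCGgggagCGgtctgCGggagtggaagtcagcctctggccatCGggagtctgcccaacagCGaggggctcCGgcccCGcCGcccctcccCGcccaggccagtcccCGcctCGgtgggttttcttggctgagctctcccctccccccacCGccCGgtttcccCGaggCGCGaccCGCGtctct
Fabp3: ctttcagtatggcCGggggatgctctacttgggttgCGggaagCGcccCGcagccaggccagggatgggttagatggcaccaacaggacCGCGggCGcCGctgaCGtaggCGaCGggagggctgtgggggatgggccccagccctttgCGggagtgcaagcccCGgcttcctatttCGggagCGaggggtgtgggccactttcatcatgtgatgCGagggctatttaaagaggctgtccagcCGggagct
Cgas: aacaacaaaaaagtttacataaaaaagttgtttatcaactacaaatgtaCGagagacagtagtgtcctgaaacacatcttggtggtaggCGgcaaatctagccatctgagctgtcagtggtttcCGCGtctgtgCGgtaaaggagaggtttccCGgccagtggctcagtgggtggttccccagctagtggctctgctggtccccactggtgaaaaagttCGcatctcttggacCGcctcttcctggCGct
Ptx3: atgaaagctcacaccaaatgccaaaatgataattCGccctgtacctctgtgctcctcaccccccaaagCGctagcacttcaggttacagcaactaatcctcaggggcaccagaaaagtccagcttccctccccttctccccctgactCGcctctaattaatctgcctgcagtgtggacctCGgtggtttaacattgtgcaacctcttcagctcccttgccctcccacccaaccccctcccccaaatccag

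The ratio of CpGs observed to those expected from the base composition of the 300-base window was 1.04 for Trank1 and 0.918 for Tcfl5, and 0.431 for Ptx3. Cgas, Kdelr3, Foxl2os and Fabp3 had 0.760, 0.749, 0.747 and 0.708. Chdh has 3 annotated starts, and their windows had 0.703, 0.200 and 0.188. The median over the 10 member windows was 0.727, against 0.683 over 330 windows of 228 other genes that were 2-fold or more higher in dKO in both parts, and 0.752 over 12599 windows of the genes tested. The median of the member windows was close to that of the genes tested, and Trank1 and Tcfl5 lay above the upper quartile of 0.908.

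**Figure D1:**
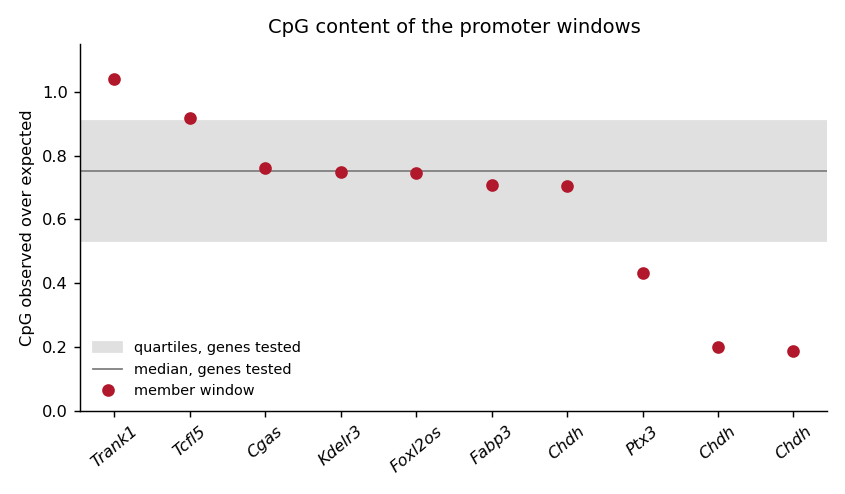
CpG observed over expected (vertical axis, a ratio) in each of the 10 promoter windows of 8 members, in descending order. The line and grey band give the median and quartiles over windows of the genes tested. Trank1 and Tcfl5 lie above the band, Ptx3 and the other 2 Chdh starts below it.

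Motifs were read in the same windows on both strands. The letters CACGTG, the canonical E-box that reads the same on both strands, were in 0 of the 10 member windows, 9.87% of the windows of genes tested and 7.15% of all windows. The letters GGCGGGAA, or TTCCCGCC on the other strand, were in 1 of the 10, against 3.95% of the windows of genes tested and 2.19% of all. That window is Trank1's, and the match begins at base 172 of the printed sequence, where it reads ttccCGcc.

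Signals are MAS5 values on a linear scale, and the median signal of each array, 59.5 to 76.1, was taken as a floor below which values have no order. The control and dKO arrays correlated at 0.964 to 0.986 with each other on floored log2 signals, and the proximal RA array stood apart, at 0.927 to 0.951 with the other 5. Both RA arrays also differed in the BioB spike, a bacterial hybridisation control (84.4 and 103 in RA, against 1105 to 1223 on the other 4 arrays). The X-linked Xist had 12.9 and 29.5 in RA, against 3017 to 3688 elsewhere, and the Y-linked Eif2s3y 2783 and 3064 in RA, against 12.3 or less. Sex of the embryos, handling, Ring1A genotype label and retinoic acid therefore cannot be told apart in any comparison with RA; no member lies on a sex chromosome. Of 9 limb mesenchyme markers, among them Prrx1, Twist1 and Tbx5, all 9 were above the floor on every array. Ring1, which encodes Ring1A, had 402 and 578 in dKO, 419.8 and 245 in RA, and 624 and 968 in the control, and Rnf2, which encodes Ring1B, had 2147 and 1887, 1941 and 2085, and 2042 and 2070. The files do not place these probes relative to the deleted exons, so these signals check neither deletion.

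In dKO all 10 members were 2-fold or more above the control in both parts. The rule that chose them fixes this count. Over all genes tested, 4.07% were 2-fold or more higher in dKO in the proximal part and 5.32% in the distal part, while 0.363% and 0.524% were that much lower. The median log2 difference of dKO over control was 2.63 for the members in the proximal part and 2.80 in the distal part, against 0.02 and 0.01 for all genes tested. On the proximal dKO array the members lay between percentiles 72.5 and 89.2 of all probe sets, and on the distal dKO array between 70.1 and 88.9. On the control arrays they lay between percentiles 27.7 and 64.1 proximally and between 23.2 and 65.6 distally. Above the floor were 10 and 10 members in dKO, 8 and 6 in RA, and 7 and 7 in the control, counting the proximal and then the distal array. In such bulk tissue, more cells of a type and more RNA per cell cannot be told apart.

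**Figure D2:**
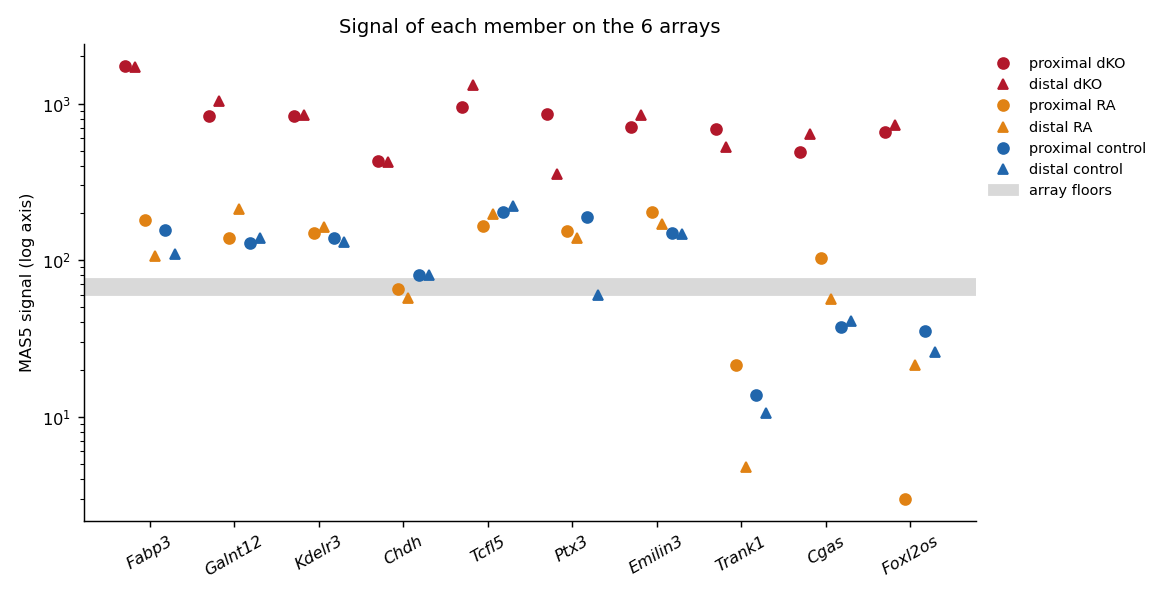
MAS5 signal (vertical axis, log scale) of the 10 members on the 6 arrays, with dKO in red, RA in orange and control in blue, circles for proximal and triangles for distal parts. The grey band spans the 6 array floors, 59.5 to 76.1. Every dKO point lies above every RA and control point of the same gene, and Trank1, Cgas and Foxl2os lie below the floor in the control.

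Fabp3 encodes the heart-type fatty acid binding protein, a cytosolic carrier of long-chain fatty acids in cardiac and skeletal muscle. It had signals of 1746 and 1699 in the proximal and distal dKO parts, 181 and 106 in the RA parts, and 155 and 109 in the control parts. The dKO arrays stood apart from the other 4, which overlapped with each other, and the excess of dKO over control was 11.3-fold proximally and 15.6-fold distally (log2 3.50 and 3.96). A second probe set annotated to Fabp3 was below the floor on all 6 arrays, at 16.9 to 44.0, and did not follow the first.

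Chdh encodes choline dehydrogenase, the mitochondrial enzyme that begins the oxidation of choline to betaine. It had 428 and 425 in dKO, 65.4 and 57.5 in RA, and 80.7 and 80.3 in the control, where it was just above the floor. Its dKO excess was the same in both parts, 5.30-fold and 5.29-fold (log2 2.41 and 2.40).

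Galnt12 encodes a Golgi enzyme that attaches the first sugar, N-acetylgalactosamine, in mucin-type O-glycosylation. Its signals were 831 and 1044 in dKO, 140 and 212 in RA, and 130 and 139 in the control. That is 6.41-fold and 7.49-fold over the control (log2 2.68 and 2.91), with the distal array the higher one in all 3 conditions.

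Kdelr3 encodes one of the KDEL receptors, which return proteins that have escaped from the endoplasmic reticulum. It had 835 and 845 in dKO, 148 and 163 in RA, and 139 and 131 in the control. The 4 arrays without the dKO genotype spanned a narrow range, and dKO exceeded the control 6.01-fold and 6.45-fold (log2 2.59 and 2.69).

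Emilin3 encodes a secreted glycoprotein of the extracellular matrix, of the family that associates with elastic fibres. It had 704 and 848 in dKO, 203 and 169 in RA, and 150 and 147 in the control, an excess of 4.70-fold and 5.76-fold in dKO over control (log2 2.23 and 2.53). Both RA signals lay above both control signals, by far less than the dKO signals did.

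Ptx3 encodes a long pentraxin, a secreted pattern-recognition protein that is also built into hyaluronan-rich matrix. It was the member that varied most with position, at 864 and 357 in dKO, 154 and 138 in RA, and 189 and 60.1 in the control. The distal control value is hardly above that array's floor of 59.5, and the excess of dKO was 4.57-fold and 5.94-fold (log2 2.19 and 2.57). A second Ptx3 probe set had 99.9 and 54.2 in dKO, 50.4 and 5.46 in RA, and 20.3 and 17.9 in the control, and only its proximal dKO value was above the floor.

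Cgas encodes cyclic GMP-AMP synthase, the sensor of double-stranded DNA in the cytosol. Its brighter probe set had 489 and 635 in dKO, 103 and 56.3 in RA, and 37.5 and 41.0 in the control, where it was below the floor. The excess of dKO over the control floor was at least 7.65-fold and at least 10.7-fold (log2 2.94 and 3.42). The other Cgas probe set gave a like picture, with 565 and 618 in dKO, 88.4 and 44.2 in RA, and 35.9 and 49.0 in the control.

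Tcfl5 encodes a basic helix-loop-helix transcription factor best known from the germ cells of the testis. It had the highest control signals of the 10, at 953 and 1319 in dKO, 164 and 198 in RA, and 204 and 223 in the control. It was 4.67-fold and 5.92-fold higher in dKO than in control (log2 2.22 and 2.57), and it was above the floor on all 6 arrays.

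Trank1 encodes a large protein with tetratricopeptide and ankyrin repeats. It had 690 and 525 in dKO, 21.2 and 4.77 in RA, and 13.7 and 10.6 in the control. With all 4 arrays outside dKO below the floor, only bounds can be given, at least 10.8-fold and at least 8.82-fold over control (log2 3.43 and 3.14).

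Foxl2os is a noncoding RNA transcribed away from Foxl2, the forkhead gene of the ovary and eyelid. It had 659 and 729 in dKO, 2.97 and 21.5 in RA, and 35.2 and 26.0 in the control. Here too all 4 arrays outside dKO were below the floor, and the bounds over control were 3.36 and 3.62 on the log2 scale, the distal one 12.3-fold.

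The members were chosen for an excess in both parts, so that both parts show one is no result. Among the 7 members measured on all 4 arrays, the proximal excess less the distal one ranged from -0.47 for Fabp3 to 0.00 for Chdh on the log2 scale. Of all 18193 genes, ordered by the smaller of their proximal and distal log2 differences of dKO over control, Fabp3 was the 2nd. Foxl2os, Trank1 and Cgas stood at places 3, 7 and 11 by their bounds, which are the lowest values their signals allow over the control floor. Other genes in the order are bounds too, so the true places of the members may be higher or lower. Galnt12, Kdelr3 and Chdh followed at places 16, 19 and 23, and Emilin3, Tcfl5 and Ptx3 at 33, 34 and 36. In all, 333 genes were 2-fold or more higher in both parts. Around the lowest member, Ptx3 with a measured 2.19, the genes ranked just above were Fez1 with at least 2.26 and Rspo1 with at least 2.22. Those just below were Nrn1 with at least 2.18, En2 with at least 2.15 and Pcdh8 with at least 2.12. All of these values but that of Ptx3 are bounds, so the order around Ptx3 is not settled.

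Of the 8 members above the floor on a proximal RA or control array, 0 were 2-fold or more higher and 0 lower, where 3.69% of all genes tested were higher and 6.8% lower. Of 7 in the distal part, 1 was higher and 0 lower, against 2.16% and 2.13% of all genes tested. The median log2 difference of RA over control was 0.10 proximally and 0.20 distally. The dKO and RA comparisons use the same control arrays, so their values are set side by side only.

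The gene higher in distal RA was Ptx3, 1.20 on the log2 scale above a control value next to the floor, and -0.29 in the proximal part. It was 0.70 distally with both probe sets averaged and 0.97 after quantile normalization. Galnt12 differed from control by 0.11 and 0.61, Kdelr3 by 0.09 and 0.31 and Emilin3 by 0.44 and 0.20 (proximal and distal, log2). Tcfl5 was lower in both parts, at -0.31 and -0.17, as was Chdh at -0.30 and -0.24, the second a bound because the distal RA signal is under the floor. Fabp3 had 0.22 and -0.05. Cgas had a bound of at least 0.69 proximally, since its control signal is under the floor, so that an excess of 2-fold or more is possible there. With the floor at the 25th percentile the value was 1.46, and it also passed 2-fold with no floor. Trank1 and Foxl2os were not above the floor in any RA or control part.

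Against RA in place of control, the dKO signals were again higher for all 10 members in both parts, without use of the control arrays. The dKO arrays are the ones the choice of members used, so this too is a description. Fabp3 was 9.65-fold and 16.1-fold above RA, Trank1 at least 11.0-fold and 7.69-fold, and Foxl2os at least 10.7-fold in the distal part, with a proximal RA signal far under the floor. Tcfl5 was 5.81-fold and 6.65-fold, Kdelr3 5.64-fold and 5.19-fold, and Galnt12 5.96-fold and 4.92-fold above RA. Chdh was 6.54-fold and at least 6.24-fold higher, Emilin3 3.46-fold and 5.02-fold, and Cgas 4.75-fold and at least 9.31-fold. The smallest ratio was that of Ptx3 in the distal part, 2.59-fold, against 5.60-fold in the proximal part.

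**Figure D3:**
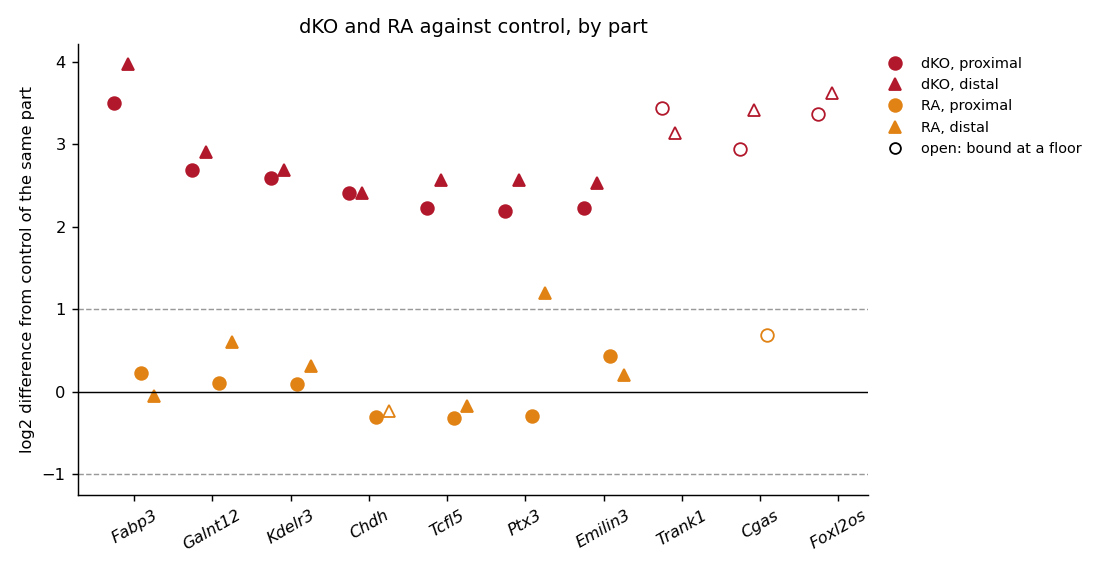
Log2 difference from the control of the same part (vertical axis) for each member, with dKO in red and RA in orange, circles for proximal and triangles for distal parts, and open symbols for bounds at a floor. Dashed lines mark 2-fold. The dKO points span 2.19 to 3.96 and the RA points -0.31 to 1.20.

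Position within the bud is the one contrast with several pairs of arrays. The choice of members did not rank genes by it, but it used the dKO and control arrays of both parts. Asking for an excess in both parts favours genes whose excess is alike in the 2 parts. The p-values for position below rest in part on that likeness, so they are not independent of the choice. Between proximal and distal arrays, 1 of 10 members differed 2-fold or more in dKO, 0 of 8 in RA and 1 of 7 in the control, against 1.24%, 10.6% and 2.75% of all genes tested. The member was Ptx3 both times, higher proximally by 1.27 in dKO, 0.16 in RA and 1.65 in the control (log2). With both of its probe sets averaged these became 0.83 in dKO and 0.88 in the control.

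Fabp3 was also higher proximally in each condition, by 0.04 in dKO, 0.78 in RA and 0.51 in the control. Galnt12 and Tcfl5 were lower proximally in each, by -0.33, -0.61 and -0.10 for Galnt12 and by -0.47, -0.27 and -0.13 for Tcfl5, in the same order of conditions. In dKO, where all 10 could be measured, Trank1 was 0.40 higher proximally, Cgas -0.38, Emilin3 -0.27 and Foxl2os -0.15, and Kdelr3 and Chdh were within 0.02 of equal.

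In an additive limma fit with condition as a term (Benjamini-Hochberg adjustment over 12147 genes), no member passed the test for position, and neither did any other gene (0%), although 1156 genes, Ptx3 the single member among them, had an unadjusted p under 0.05. Ptx3 had a log2 coefficient of 1.03 with a standard error of 0.31, higher proximally in 3 of 3 pairs, with a limma p of 0.0129 and an adjusted p of 0.355. Without the RA pair the coefficient was 1.46 with a standard error of 0.20 and a limma adjusted p of 0.00104, without the dKO pair 0.91 with an adjusted p of 0.0999, and without the control pair 0.72 with 0.415. Ptx3 thus passed only without the RA pair and with no filter on low signals (limma adjusted p 0.0128). With any 1 pair left out, whichever it was, 294 to 431 genes passed. Those fits have 1 residual degree of freedom in place of 2. The prior degrees of freedom that limma estimated for them were 12.7 or more, in place of 4.64. The cause was not tested. With both probe sets averaged the coefficient was 0.58, with a standard error of 0.20 and a limma adjusted p of 0.461. Fabp3 had 0.44 with a standard error of 0.22 (limma adjusted p 0.582), Galnt12 -0.35 with 0.20 (0.595) and Tcfl5 -0.29 with 0.19 (0.605). The coefficients of the other 6 were within 0.13 of 0, with limma adjusted p of 0.789 or more. Of these, Trank1 and Foxl2os were above the floor in dKO alone, so their RA and control pairs hold floor values and say nothing of position. Cgas was above it in dKO and proximal RA. Its RA pair gives a bound of at least 0.59 higher proximally, and its control pair says nothing of position.

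**Figure D4:**
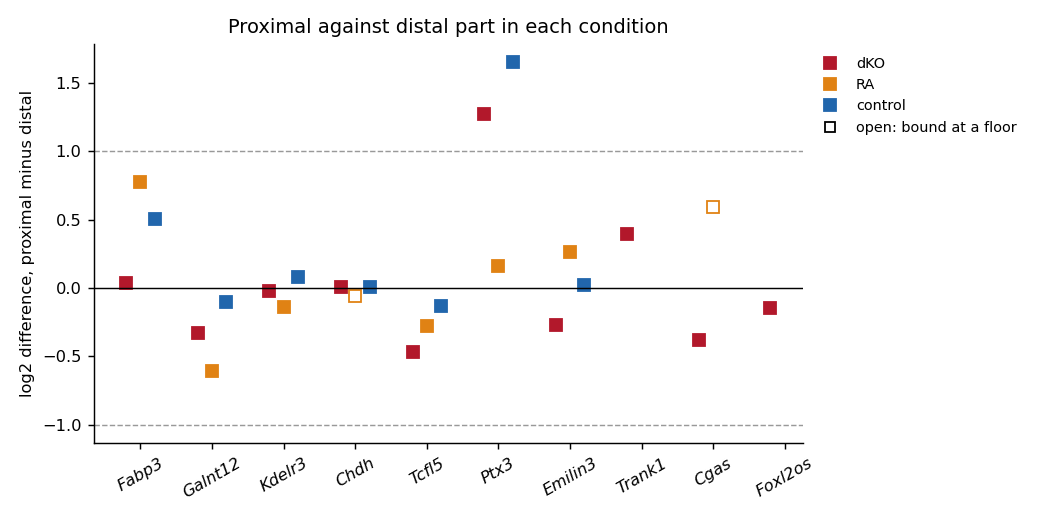
Log2 difference of the proximal over the distal part (vertical axis) for each member, with dKO in red, RA in orange and control in blue, and open symbols for bounds at a floor. Dashed lines mark 2-fold. Ptx3 in dKO and in the control are the 2 points beyond them, at 1.27 and 1.65.

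Across the 6 arrays, the profile of Ptx3 was the least like that of the others: its Pearson correlation with the mean of the other 9 members was 0.852, against 0.974 to 0.998 for the rest. The 6 arrays share their conditions and the members were chosen for them, so these values only describe likeness. The 6 genes with the profile closest to the members' mean, out of 3441 that ranged over at least 1 log2 unit, were Pax9, Paqr9, Onecut2, Tcf21, Cacna1d and Hoxd1, each at 0.998 or 0.999. All 6 of these genes were below the floor in RA and control, so their values there are the array floors. They reached the required range through dKO alone. Cacna1d, a calcium channel subunit, is also a neighbour of Chdh, described further on.

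The relatives and pathway partners of the members mostly did not differ 2-fold in dKO, by lists that count non-members only. Of the fatty acid binding proteins, 3 of 12 on the arrays were above the floor and 0 were 2-fold higher or lower in either part: Fabp5 had 8681 and 9169 in dKO against 8505 and 8317 in the control, and Crabp1 and Crabp2, which carry retinoic acid, differed by 0.32 and 0.13 proximally and by 0.11 and 0.02 distally on the log2 scale. In RA, Fabp5 was at -1.05 proximally. Of 12 genes of fatty acid uptake and oxidation, 1 was higher proximally, Cpt1a, which admits fatty acids to the mitochondrion (log2 1.11, and 0.90 distally), and none lower; in proximal RA, Acadvl was at 1.17 and Hadhb at -1.14, both enzymes of fatty acid oxidation. Of 8 genes of choline and betaine metabolism, 1 was lower proximally, Pemt (log2 -1.04, and 0.14 distally), which makes phosphatidylcholine.

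Of 13 genes of mucin-type O-glycosylation, 0 differed 2-fold in the proximal part of dKO and 2 were higher in the distal part, Galnt18 (log2 1.02) and Gcnt1 (1.02). In RA, 4 were lower proximally, Galnt5 (-1.15), Galnt7 (-1.54), C1galt1 (-1.21) and Gcnt1 (a bound of -2.10), and Gcnt1 alone distally (-1.83). Of 15 KDEL receptors and proteins of the endoplasmic reticulum, 0 differed 2-fold in dKO in either part. Kdelr1 was at -0.08 and -0.13 and Kdelr2 at -0.02 and -0.08 in dKO (log2, proximal and distal), and Ddit3, a marker of stress in that organelle, at 0.69 and 0.49. In RA, Ddit3 was 1.87 higher, Pdia4 1.08 higher and Hsp90b1 -1.24 in the proximal part, and Pdia4 was 1.17 higher in the distal part.

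The partners of Cgas that could be compared did not show a like excess. Of 20 genes on the arrays, from the STING relay to interferon-stimulated genes, 8 were above the floor in dKO or control in each part. The rest were not detected there and say nothing. Of the 8, 0 were 2-fold higher in the proximal part of dKO and 1 in the distal part, Bst2 (log2 1.07, and 0.70 proximally). Rsad2, an interferon-stimulated gene, was at 0.93 proximally and 0.02 distally. Sting1, the receptor of the cyclic dinucleotide that Cgas makes, had 734 and 948 in dKO against 726 and 1099 in the control, and Tbk1 and Irf3 differed by at most 0.12. Of 11 pentraxins and other soluble immune proteins on the arrays, 3 were above the floor in dKO or control. Nptx2 (at least 1.52) and Colec12 (1.26) were 2-fold higher in the distal part of dKO and none in the proximal part. Nptx2 was above the floor on the dKO arrays alone and so entered through the group where it is high. Colec12 had a bound of -1.32 in proximal RA. Of the same list, C1qb, a complement gene of macrophages, was 2.60 higher in distal RA, where 5 of 7 macrophage markers were above the floor and the list summed to 998, against 4 and 675 in the distal control. Over the 6 arrays that sum ranged from 501 in the proximal control to 998, Adgre1 and Cx3cr1 were below the floor on all 6, and their part in that value was not tested. Of the matrix proteins listed with Emilin3, 0 of 7 in the proximal part and 0 of 6 in the distal part differed 2-fold in dKO. Emilin1 was at -0.03 and -0.38, and Emilin2 at 0.27 and 0.58. In RA, Mmrn1 was at -1.09 proximally and Fbln5 had bounds of -1.12 and -1.02. Of 4 genes listed as resembling Trank1, 0 differed 2-fold in dKO, and Mov10 was at 1.19 in proximal RA.

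Germ cell genes, listed because of Tcfl5, were mostly under the floor: 4 of 22 could be compared in the proximal part and 5 in the distal part. Of these, 3 were 2-fold higher in dKO in both parts. Tdrkh, a Tudor-domain protein of the piRNA pathway, had 247 and 289 in dKO, 74.9 and 110 in RA, and 95.5 and 86.0 in the control (log2 1.37 and 1.75). Meioc, needed for meiosis, had 187 and 124 in dKO, 21.9 and 13.0 in RA, and 14.1 and 2.28 in the control (at least 1.55 and at least 1.06). Zar1, an oocyte gene, had 132 and 119 in dKO, 31.8 and 14.1 in RA, and 2.99 and 12.6 in the control (at least 1.04 proximally and just past 2-fold distally). As a low signal passes the floor only where it is high, this share of those above the floor supports nothing.

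The genes beside the members in the genome were compared next (RefSeq, GRCm38.p6). Of the 20 nearest protein-coding neighbours on the arrays, 1 on each side of each member, 14 were above the floor in dKO or control in each part. In the proximal part 4 were 2-fold or more higher in dKO and 1 lower, and in the distal part 3 and 1, with medians of 0.05 and 0.01 on the log2 scale. The proximal count was 2 after each array was divided by its median, or after quantile normalization, and it was 7 with the floor at the 25th percentile. Ddx43, Dmc1 and Foxl2 were above the floor on the dKO arrays alone and so entered the count through the group where they are high, which leaves the count a description that supports nothing. In RA, 0 of 12 neighbours were 2-fold higher or lower proximally and 0 of 11 distally.

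Ddx43, a helicase gene best known from testis and tumours, is the nearest protein-coding gene on the arrays on 1 side of Cgas. It was the neighbour with the largest excess. It had 438 and 482 in dKO, 23.4 and 51.5 in RA, and 19.7 and 18.2 in the control, which gives at least 2.78 and 3.02 on the log2 scale. The neighbour of Cgas on its other side, Mto1, whose product modifies mitochondrial tRNAs, differed by less than 2-fold in both parts. Serinc2, the neighbour of Fabp3 on 1 side, had 449 and 462 in dKO, 156 and 177 in RA, and 152 and 186 in the control (1.56 and 1.32, and 0.96 distally after division by the array median). Dmc1, the meiotic recombinase gene next to Kdelr3, had 144 and 94.0 in dKO, 37.9 and 11.0 in RA, and 36.4 and 33.4 in the control (at least 1.17 and at least 0.66; 0.97 proximally after division by the array median).

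Foxl2 and Foxl2os lie head to head on opposite strands of chromosome 9, with starts 297 bases apart, so that their promoter windows share 204 bases and the printed Foxl2os sequence holds part of both. Foxl2 had 140 and 155 in dKO, 15.2 or less in RA, and 24.1 and 19.0 in the control. Both genes were thus detected in dKO alone, with at least 1.13 and 1.38 for Foxl2 on the log2 scale (0.66 and 0.87 with its probe sets averaged, and 0.94 proximally after division by the array median), beside 3.36 and 3.62 for Foxl2os.

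The neighbour that went the other way was Shox2, a limb homeobox gene and the nearest protein-coding gene on the arrays on 1 side of Ptx3. It had 1914 and 1943 in dKO, 4280 and 3730 in RA, and 4135 and 4111 in the control (log2 -1.11 and -1.08). Among genes whose annotated range overlaps that of a member, Cacna1d, on the strand opposite to Chdh, had 325 and 347 in dKO, 19.4 and 51.4 in RA, and 59.9 and 47.0 in the control. That gives at least 2.34 and at least 2.54 (1.27 and 1.45 with its probe sets averaged), beside the measured 2.41 and 2.40 of Chdh itself. Zcchc17 and Ddx17, which overlap Fabp3 and Kdelr3, differed by -0.15 and 0.16 proximally and by 0.01 and -0.07 distally.

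**Figure D5:**
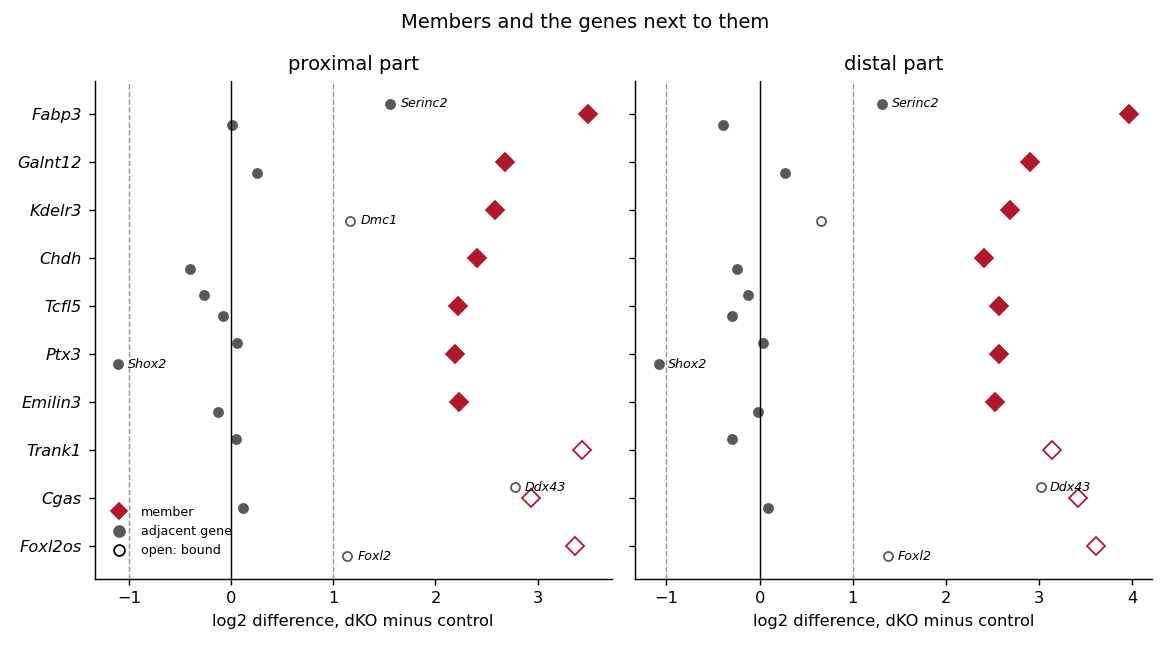
Log2 difference of dKO over control (horizontal axis) for each member (diamonds) and its neighbours (circles), in the proximal (left) and distal part (right). Neighbours are the nearest protein-coding genes on the arrays, on either side and not overlapping the member, where above the floor. Open symbols are bounds at a floor and dashed lines mark 2-fold. Ddx43, Serinc2, Dmc1 and Foxl2 lie beyond 2-fold with their members in the proximal part, Shox2 lies at -1.11 and -1.08, and most others lie near 0.

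Markers of other cell types moved in part with the members. Of 7 neural and Schwann genes on the arrays, 4 were above the floor in each part of dKO or control. The summed signal was 1254 and 1276 in dKO, 293 and 417 in RA, and 540 and 555 in the control. The neurofilament genes Nefl (1.69 and 2.41) and Nefm (1.65 and at least 1.56) were 2-fold higher in dKO, Tubb3 was at 0.53 and -0.54, and the defining Sox10, Foxd3 and Elavl3 were below the floor on all 6 arrays.

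Muscle precursor markers summed to 5692 and 2485 in dKO, 4134 and 867 in RA, and 4008 and 1252 in the control. Of 7 such genes 5 were above the floor proximally and 4 distally. In dKO 1 was 2-fold higher proximally, Pax7, and 3 distally, Pax7, Pax3 and Lbx1. Myf5 went the other way proximally, with 0.808 in dKO against 103 in the control, a bound of -0.50 on the log2 scale. Myod1 and Myog were below the floor on all 6 arrays. Of 5 mesothelium markers, 3 were above the floor, with sums of 1263 and 1309 in dKO, 758 and 560 in RA, and 1741 and 864 in the control. Within that sum Wt1 was higher in dKO (at least 2.14 and at least 1.02 on the log2 scale), Upk3b was at least 1.21 and 0.52, Tbx18, the brightest, was at -1.12 and 0.57, and Msln and Upk1b were below the floor on all 6 arrays. Of 6 somite and body wall markers, all above the floor in dKO or control, the proximal part of dKO had 2 at 2-fold or more higher and 2 lower, the distal part 2 and 1, with sums of 2560 and 1823 in dKO, 5876 and 1242 in RA, and 2751 and 1877 in the control. Endothelial markers, 8 of 8 above the floor, summed to 4166 and 3080 in dKO, 4662 and 2521 in RA, and 2923 and 2238 in the control, with 0 at 2-fold in dKO. Of 5 markers of the apical ectodermal ridge, the signalling epithelium at the limb tip, 2 were 2-fold lower in distal dKO, Fgf4 (-4.36) and Fgf8 (-1.13), and 1 was higher proximally, Dlx5 (at least 1.28). That list summed to 1716 and 2766 in dKO, 501 and 4128 in RA, and 1556 and 5792 in the control. Surface ectoderm markers, 8 of 8 above the floor, had 0 at 2-fold in dKO, with sums of 10239 and 15370 in dKO, 7314 and 10866 in RA, and 8819 and 15635 in the control. The part of these cells in the members' signals was not tested.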

How the data were processed

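Per the labels' protocols, RNA came from RNeasy Micro columns, and its biotin-labelled cRNA was hybridised to one-colour Affymetrix arrays. The deposited values are signal intensity from MAS5, per the submitters' processing notes (version not given in the sources used here), on a linear scale. In each column the mean is 500 after 2% of probe sets are left out at each end. The number of arrays, 1 for each part and condition, limits the precision.

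Of 45101 probe sets (64 controls), 34958 have 1 gene symbol, 932 several and 9211 none listed; 34754 of the single-symbol ones matched RefSeq by gene ID. A gene's value (18193 genes) is that of its brightest probe set by mean log2 signal. Signals under the median of their array, the floor, were set to it. A gene entered a comparison when above the floor on at least 1 of its arrays, and folds against floored values are bounds ("at least"). Genes were counted at 2-fold.

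Single-array differences have no test. Position was tested with limma 3.58.1 in R 4.3.3 (additive, condition as a term, trended prior variance, Benjamini-Hochberg adjustment, threshold 0.05), with 2 residual degrees of freedom, and checked on simulated data. Its p-values rest on how far the difference between proximal and distal arrays varies among the conditions. They do not measure spread between replicate arrays or embryos. All members were named, with the listed relatives, the nearest genes, the 5 genes ranked next to the lowest member and the 6 closest profiles. Listed genes were named where 2-fold different from control in dKO or RA, or nearest in name to a member. Other settings are given in the closing section.

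The members and the gene lists were chosen with earlier results of these data known.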

Additional observations from a re-analysis of the deposited data

Results flagged for a closer look

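With 1 array for each part and condition, the following pairs of log2 differences point in opposite directions, and none of the differences between them was tested. Ptx3 in RA was -0.29 from the control proximally and 1.20 distally, a difference of -1.49, and the distal control signal lies next to the floor. Fabp3 in RA was 0.22 proximally and -0.05 distally, a difference of 0.27. Emilin3 was -0.27 in the proximal over the distal part in dKO and 0.03 in the control, a difference of -0.29. Kdelr3 in the same contrast was -0.02 in dKO and 0.08 in the control, a difference of -0.10, and it was -0.14 in RA, a difference of -0.22 from the control. Of these, the Ptx3 value alone exceeds 1 on the log2 scale.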

How the results depend on the processing

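All 10 members stayed 2-fold or more higher in dKO in both parts under 5 other settings, with log2 differences of 1.42 to 5.65. At a 3-fold threshold all 10 were still higher in both parts, with the other settings as reported. Of 350 recomputed member differences, 19 moved by more than 1.5 times and 0 of 2-fold or more turned in direction. With all probe sets averaged, Fabp3 was at 1.84 and 2.16 and Ptx3 at 1.42 and 1.46 in dKO. After division by array medians, all genes tested had a median difference of dKO over control of -0.17 proximally and -0.35 distally. The number of members 2-fold higher in proximal RA, 0, was 1, Cgas, with the floor at the 25th percentile or no floor (log2 of signal plus 16), and the 1 in distal RA was 0 after quantile normalization or with probe sets averaged. The 1 member that differed with position in dKO and the 1 in control were each 0 with probe sets averaged. Neighbours 2-fold higher in dKO, settings chosen after seeing the data, numbered 7 proximally and 6 distally with the floor at the 25th percentile, 2 proximally after dividing by the array median or quantile normalization, and 5 distally with no floor. Genes that passed the limma test for position numbered 0 as reported, 294 to 431 when 1 pair was left out and 768 with no filter on low signals; of the members, 0 to 1 and 1, Ptx3 each time. The cause was not tested. The floors limit Trank1, Foxl2os and Cgas to bounds.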
